A study of Homo sapiens with 6 samples.

Results

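The 49 genes described here build the machinery of DNA replication: they license origins, unwind DNA, copy it, supply nucleotides, or switch these genes on at the passage from G1 into S phase. They were chosen by name, with earlier results of these data known, from the 63241 gene rows of the deposited table. Each name had 1 row. The libraries came from THP-1-derived macrophages, cells made from an established human monocytic leukaemia line, grown in medium with FBS and given siRNA, at 24 h per the labels. The 3 siNC libraries (genotype WT) received a negative control siRNA, and the 3 siDUSP6 libraries (genotype DUSP6 knockdown) an siRNA against DUSP6, a phosphatase that switches off the kinases ERK1 and ERK2. For siDUSP6 replicates 2 and 3 the treatment label reads DUSP7 and DUSP8 siRNA, while title, library name and genotype read DUSP6. DUSP6 itself measured 359, 368 and 378 TPM in siNC and 227, 218 and 222 TPM in siDUSP6, so that all 3 siDUSP6 libraries lay below siNC (log2 fold change -0.73, SE 0.0267, limma adjusted p = 8.667e-05).

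Replication starts when the origin recognition complex, CDC6 and CDT1 load the ring-shaped MCM2-7 helicase onto DNA in G1. In S phase CDC45 and the GINS complex join the ring to make the active helicase, and polymerases alpha, delta and epsilon copy the strands while the PCNA clamp, opened by replication factor C, holds them to DNA. Most of these genes are known targets of E2F transcription factors, which are held back by the retinoblastoma protein until cyclin-dependent kinases release them. Monocytic cells that differentiate into macrophages are known for leaving the cell cycle.

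Values are TPM, read counts divided by transcript length and scaled to the same total in every library. Depth cannot be read from them and is unknown. Across genes, libraries of 1 group correlated at 0.9816 to 0.9853 (log2 of TPM + 1) and libraries of different groups at 0.9806 to 0.983. No label states separate cultures. The p-values thus weigh the difference between groups only against the spread of these libraries, which may be technical variation. All 12 macrophage markers on a fixed list were measured, including CD68, CSF1R and SPI1, with a summed level of 4080 to 4175 TPM in siNC and 4012 to 4086 TPM in siDUSP6. Only CD14, an endotoxin co-receptor, was called among them, at 32.4, 31.1 and 26.2 TPM in siNC and 39.6, 40.9 and 42.0 TPM in siDUSP6 (limma adjusted p = 0.03332). That call was kept in 1 of 6 fits without 1 library. In 4 of the 12 (33.3%), CSF1R, ITGAM, LYZ and TYROBP, all siDUSP6 libraries lay below siNC, against 14.9% of all tested genes. In 1, CD14, they lay above, against 10.2%. Of the 8 stromal, 7 epithelial and 7 lymphocyte markers, 3, 1 and 3 reached a mean of 1 TPM. The highest of each list were PDGFRA at 13.9, MUC1 at 7.1 and CD79A at 1.76 TPM, means over the 6 libraries. COL3A1, LUM, EPCAM, CD3D and MS4A1 were listed at 0 in every library. The summed levels of each list overlapped between the groups, at 16.4 to 24.0 and 18.6 to 20.1 TPM for stromal, 7.69 to 8.20 and 4.86 to 8.37 TPM for epithelial, and 4.68 to 5.89 and 3.75 to 5.21 TPM for lymphocyte markers.

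Of the 49 replication genes 8 fell in siDUSP6 (16.3%), with mean changes of -11.97% to -30.4%, and 0 rose by limma's test. All 49 passed the filter of a mean of 1 TPM or more and were tested. The 8 were MCM2, MCM3 and MCM7 of the helicase, PCNA, RFC3 and DSCC1 of the clamp and its loaders, the flap nuclease FEN1, and TYMS, thymidylate synthase. Over all 14602 genes tested 1.49% were called lower and 2.37% higher at a limma adjusted p under 0.05. In either direction the share was 3.86%. Those called lower and higher were 218 and 346 genes, or 151 and 441 after median-of-ratios scaling. In bulk RNA, fewer cells in S phase and less of these transcripts per cell cannot be told apart. At an unadjusted p under 0.05, 31 of the 49 were lower and 1, GINS3, was higher, against 11.2% and 8.03% of all tested genes. All 3 siDUSP6 libraries lay below all 3 siNC libraries for 31 of the 49 (63.3%, against 14.9% of all tested genes) and above them for 1 (against 10.2%). The log2 fold change was below 0 for 45 of the 49, against 57.9% of all tested genes. Its median over the 49 was -0.20 and over all tested genes -0.0254, both on the log2(TPM + 1) scale. Since the 49 were chosen with earlier results known, these shares and medians describe the list and are no test of it.

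The calls rest on all 6 libraries. Without siNC replicate 1, 2 or 3 the number of the 49 called lower was 1, 3 and 1, and without siDUSP6 replicate 1, 2 or 3 it was 2, 4 and 2. The MCM2 call was kept in each of these 6 fits and lost in 1 of all 16 alternatives, with an adjusted p of 0.06547. In the fit that ignores how variance depends on level, 1 of the 49 stayed called, again MCM2, and 124 of all tested genes.

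**Figure D1:**
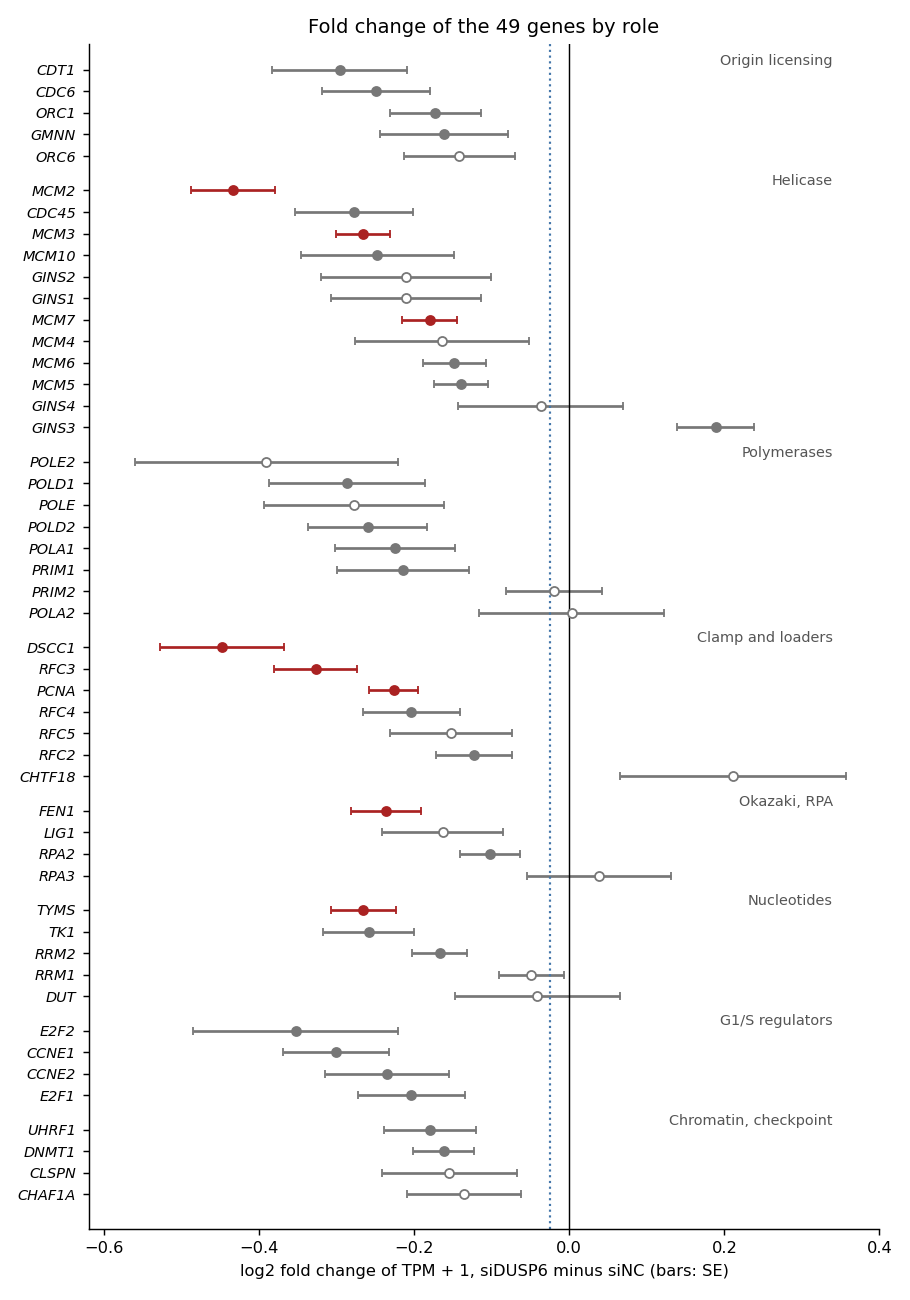
Log2 fold change of TPM + 1, siDUSP6 minus siNC, for the 49 genes in 8 role groups, with bars for the SE of the limma fit. Red marks the 8 genes called lower, grey those not called, filled points genes whose groups do not overlap, and the dotted line the median of all tested genes at -0.0254; 45 of the 49 points lie left of 0, and GINS3 is the filled point to the right.

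The 49 transcripts together made up 1231, 1235 and 1215 TPM in siNC replicates 1, 2 and 3 and 1114, 1071 and 1083 TPM in siDUSP6 replicates 1, 2 and 3. Every siDUSP6 sum was thus below every siNC sum. The means were 1227 ± 10.6 and 1089 ± 22.2 TPM (SD, n = 3 each). In siDUSP6 replicates 1, 2 and 3, 44, 46 and 44 of the 49 genes lay below their siNC mean. Of all 14602 tested genes 7951, 8020 and 8590 did so in these libraries. The median deviation from the siNC mean was -0.17, -0.21 and -0.22 on the log2(TPM + 1) scale for the 49. For all tested genes it was -0.0189, -0.0188 and -0.0339.

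**Figure D2:**
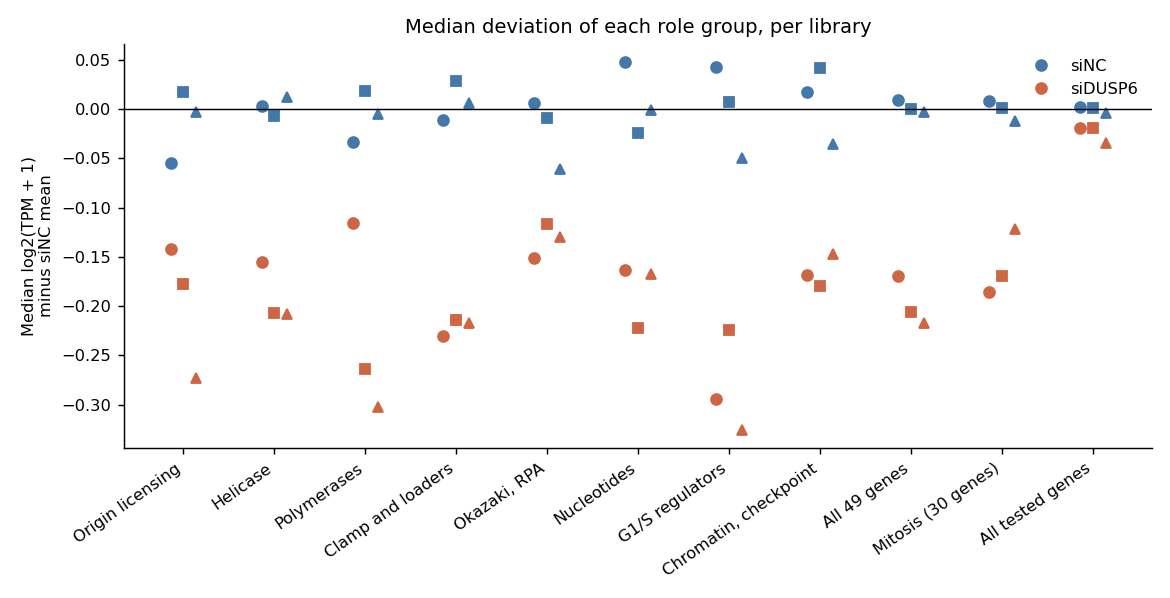
Median over the genes of each role group of log2(TPM + 1) minus the siNC mean, for each library; circles, squares and triangles are replicates 1, 2 and 3, blue siNC and orange siDUSP6. The siDUSP6 libraries lie below the siNC libraries in each of the 8 role groups, and over all 49 genes at -0.17 to -0.22, against -0.0188 to -0.0339 over all tested genes.

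Many, but not all, promoters of these genes hold short sequences of the E2F type. Because most of these genes are known E2F targets, the share is not independent of the choice of names. A search of both strands for the E2F-type sequences TTTCCCGC, TTTCGCGC, TTTGCCGC and TTTGGCGC covered the 300 bases from 250 before to 50 after the RefSeq start (GRCh38.p14), given for 42 of the 49 genes. At least 1 of the 4 was found in 22 of the 42 promoters (52.4%), against 3.33% of all 27305 promoters and 5.51% of the 10377 promoters of tested genes. In the related lists described below, the shares were 17.4% for replication and 5.26% for nucleotide genes. For the listed regulators of the G1/S step outside the 49, and for the chromatin assembly, checkpoint and repair genes, they were 19.0% each. Among the called genes 6 of 7 promoters held a match, namely those of MCM2, MCM3, MCM7, PCNA, RFC3 and TYMS, while FEN1 had none in the window. Among the genes not called 16 of 35 promoters held one. The 22 genes with a match had a median log2 fold change of -0.22 and the 20 without of -0.17. Against 14.9% of all tested genes, all siDUSP6 libraries lay below siNC in 14 of the 22 and 13 of the 20. A difference between these 2 sets was not tested. Printed here are 30 bases around a match in each of those 6 called genes, and in GINS3 and POLA2, which carry a match but were not lower in siDUSP6. Each runs 5′ to 3′ on the strand of its gene, with the match in capitals.
MCM2 (chr3:127598402-127598431, plus strand): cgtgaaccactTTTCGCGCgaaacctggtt
MCM3 (chr6:52284728-52284757, minus strand): agttcggaagtTTTCGCGCcggggtggagt
MCM7 (chr7:100101388-100101417, minus strand): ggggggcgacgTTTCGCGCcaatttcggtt
PCNA (chr20:5126663-5126692, minus strand): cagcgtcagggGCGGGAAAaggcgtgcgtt
RFC3 (chr13:33818083-33818112, plus strand): atttggagctcGCGGGAAAacttgtctctg
TYMS (chr18:657603-657632, plus strand): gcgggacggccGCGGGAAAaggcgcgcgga
GINS3 (chr16:58392455-58392484, plus strand): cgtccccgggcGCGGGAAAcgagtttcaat
POLA2 (chr11:65261898-65261927, plus strand): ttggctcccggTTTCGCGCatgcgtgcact
The MCM2, MCM3, MCM7 and POLA2 matches are the same 8 letters, TTTCGCGC, read on the gene's strand, and those of PCNA, RFC3, TYMS and GINS3 are TTTCCCGC read on the other strand. In MCM2 a second match overlaps the first, on the opposite strand. MCM6, which was not called, held the most, with 4 matches in overlapping pairs.

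Counting the RefSeq start as 0, the first base of the printed match was at 2 in MCM2, -4 in MCM3, -9 in MCM7, -59 in PCNA, -55 in RFC3 and -39 in TYMS. It was at -5 in GINS3 and -53 in POLA2. MCM3 and MCM7 each held a second match farther upstream, at -174 and -187, which is not printed. The CCAAT box, bound by the factor NF-Y, was in 54.8% of the 42 promoters and 36.9% of those of tested genes. The sequence TTTGAA, called CHR and known from promoters of genes used in G2 and mitosis, was in 1 of the 42 (2.38%), against 9.99% of those of tested genes. In a list of 30 mitosis genes the shares of these sequences except CCAAT were the other way. The E2F-type sequences were in 2 of 24 promoters (8.33%) and TTTGAA in 18 (75.0%). CCAAT was in 20 of the 24 (83.3%), a higher share than among the 42. A match of letters does not show that a factor binds.

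**Figure D3:**
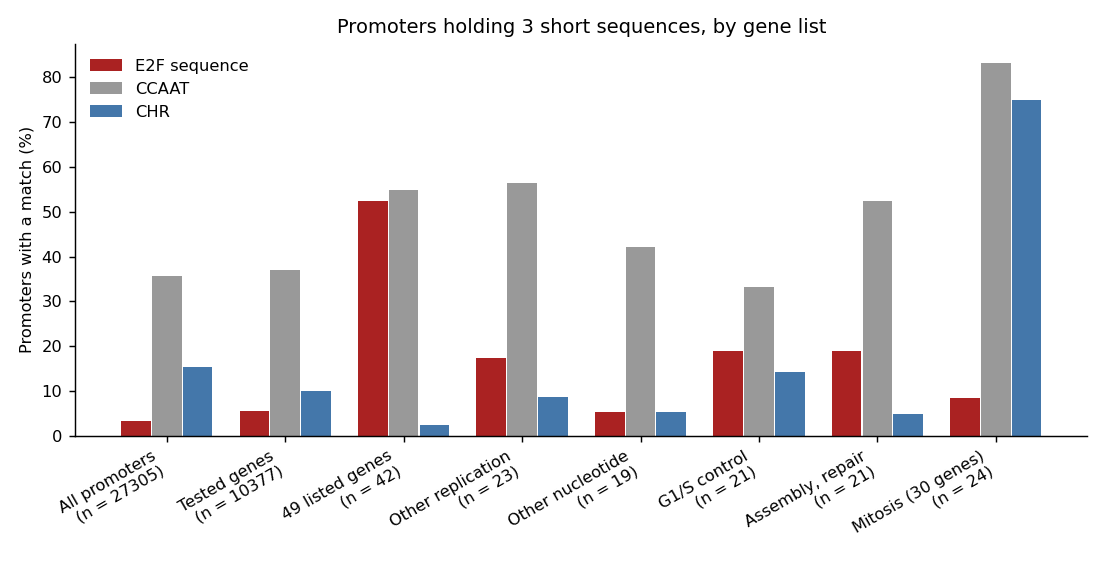
Share of promoters, in percent, holding an E2F-type sequence (red), CCAAT (grey) or TTTGAA, the CHR (blue), in windows from 250 bases before to 50 after the RefSeq start, for all promoters, those of tested genes, the 49 genes and related lists, with the number of promoters under each. The red bar is 52.4% for the 49 genes and 8.33% for mitosis genes, and the blue bar 2.38% and 75.0%.

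Among the 12 helicase genes 3 fell, 0 rose and 9 did not pass the test, with a median log2 fold change of -0.20. Among all tested genes 1.49% were called lower and 2.37% higher. MCM2 (chromosome 3, 127598223 to 127622436, plus strand, GRCh38), a subunit of the MCM2-7 ring, measured 23.5, 22.5 and 21.3 TPM in siNC and 16.7, 15.7 and 16.6 TPM in siDUSP6. The groups were far apart, with the highest siDUSP6 value below the lowest siNC value. Means were 22.4 ± 1.06 and 16.4 ± 0.552 TPM (SD, n = 3 each), a change of -27.2%. MCM2 fell by 0.43 on the log2 scale (SE 0.0538, limma adjusted p = 0.00935) and ranked 167 of 14602 genes by p.

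MCM3 (chromosome 6, 52264009 to 52284881, minus strand), the ring subunit next in size of change, measured 45.7, 45.5 and 46.1 TPM in siNC and 38.9, 36.9 and 37.8 TPM in siDUSP6. The siNC libraries lay within 1 TPM of each other and all siDUSP6 libraries below them (log2 fold change -0.27, SE 0.035, limma adjusted p = 0.01158). That call was lost without any 1 siNC library and kept without any 1 siDUSP6 library. MCM7 (chromosome 7, 100092728 to 100101940, minus strand) measured 53.2, 56.1 and 53.7 TPM in siNC and 47.6, 47.0 and 48.95 TPM in siDUSP6. The groups did not overlap and the change was small, a log2 fold change of -0.18 (limma adjusted p = 0.04678). The call was lost in each of 6 fits without 1 library and after median-of-ratios scaling (largest adjusted p 0.1539 among 16 alternatives).

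The other 3 ring subunits did not pass the test. MCM5 measured 37.3, 36.6 and 36.4 TPM in siNC and 33.7, 32.8 and 33.4 TPM in siDUSP6 (limma adjusted p = 0.08288). MCM6 went from 23.8 ± 0.333 to 21.4 ± 0.438 TPM (adjusted p = 0.1084). In both genes all siDUSP6 libraries lay below all siNC libraries. MCM4, the most abundant of the 49 at a mean of 61.9 TPM, measured 61.5, 68.2 and 65.8 TPM in siNC and 70.2, 52.4 and 53.1 TPM in siDUSP6. Its siDUSP6 replicate 1 was thus the highest of all 6 libraries, while replicates 2 and 3 were the lowest. Its log2 fold change was -0.16 with all libraries (adjusted p = 0.4914) and -0.30 without siDUSP6 replicate 1 (adjusted p = 0.066). The 6 ring subunits differed in level, from 19.4 TPM for MCM2 to 61.9 TPM for MCM4, means over the 6 libraries. The ratio of MCM7 to MCM2 TPM was 2.27 to 2.52 in siNC and 2.84 to 2.99 in siDUSP6, a pair chosen after its values were seen and not tested.

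The partners of the ring were less uniform. CDC45 measured 11.7, 10.3 and 10.03 TPM in siNC and 8.37, 9.09 and 8.44 TPM in siDUSP6, and MCM10, which helps to activate the helicase, 6.09, 6.67 and 7.58 against 5.26, 6.05 and 5.32 TPM. Neither passed the test (limma adjusted p = 0.1084 and 0.2374), although the groups of both did not overlap. GINS3 stood apart as the 1 gene of the 49 with all siDUSP6 libraries above siNC, at 35.3, 33.6 and 36.3 TPM in siNC and 42.4, 38.9 and 39.1 TPM in siDUSP6. It did not pass the test (log2 fold change 0.19, SE 0.0499, limma adjusted p = 0.09884). GINS1, GINS2 and GINS4, the other subunits of the same complex, had log2 fold changes of -0.21, -0.21 and -0.04, and their groups overlapped. GINS3 was also the most abundant of the 4, at a mean of 37.6 TPM against 12.2, 3.31 and 8.91 TPM for GINS1, GINS2 and GINS4.

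In the clamp and its loaders 3 of 7 genes fell, 0 rose and 4 did not pass, with a median log2 fold change of -0.20. PCNA (chromosome 20, 5114953 to 5126626, minus strand), the sliding clamp, measured 51.0, 50.2 and 52.1 TPM in siNC and 43.4, 43.4 and 43.8 TPM in siDUSP6. Both groups were tight and far apart (51.1 ± 0.929 and 43.5 ± 0.246 TPM), and PCNA fell by 0.23 on the log2 scale (SE 0.0314, limma adjusted p = 0.01442). The PCNA call was kept in 1 of 6 fits without 1 library, and its largest adjusted p among the alternatives was 0.08715.

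RFC3 (chromosome 13, 33818049 to 33966558, plus strand), a small subunit of replication factor C, measured 19.8, 20.8 and 20.4 TPM in siNC and 15.5, 17.0 and 15.6 TPM in siDUSP6, again without overlap. It fell by 0.33 on the log2 scale (SE 0.0539, limma adjusted p = 0.02566), a call kept in 1 of 6 fits without 1 library. DSCC1 (chromosome 8, 119833976 to 119856010, minus strand), a subunit of an alternative clamp loader linked to sister chromatid cohesion, measured 7.43, 6.75 and 7.25 TPM in siNC and 4.67, 5.36 and 4.89 TPM in siDUSP6. The groups were again apart, at 7.14 ± 0.352 and 4.97 ± 0.353 TPM, and the log2 fold change of -0.45 was the largest of the 49 on the log2(TPM + 1) scale (SE 0.0798, limma adjusted p = 0.03332). By the change of the mean, DSCC1 (-30.4%) came after E2F2 (-35.7%), which was not called. The call was lost in each of 6 fits without 1 library (largest adjusted p 0.1382). CHTF18, which works in the same loader as DSCC1, measured 4.82, 6.34 and 5.61 TPM in siNC and 7.29, 7.44 and 5.26 TPM in siDUSP6. The CHTF18 groups overlapped (log2 fold change 0.21, limma adjusted p = 0.4938). RFC4, RFC5 and RFC2 had log2 fold changes of -0.20, -0.15 and -0.12 and did not pass.

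**Figure D4:**
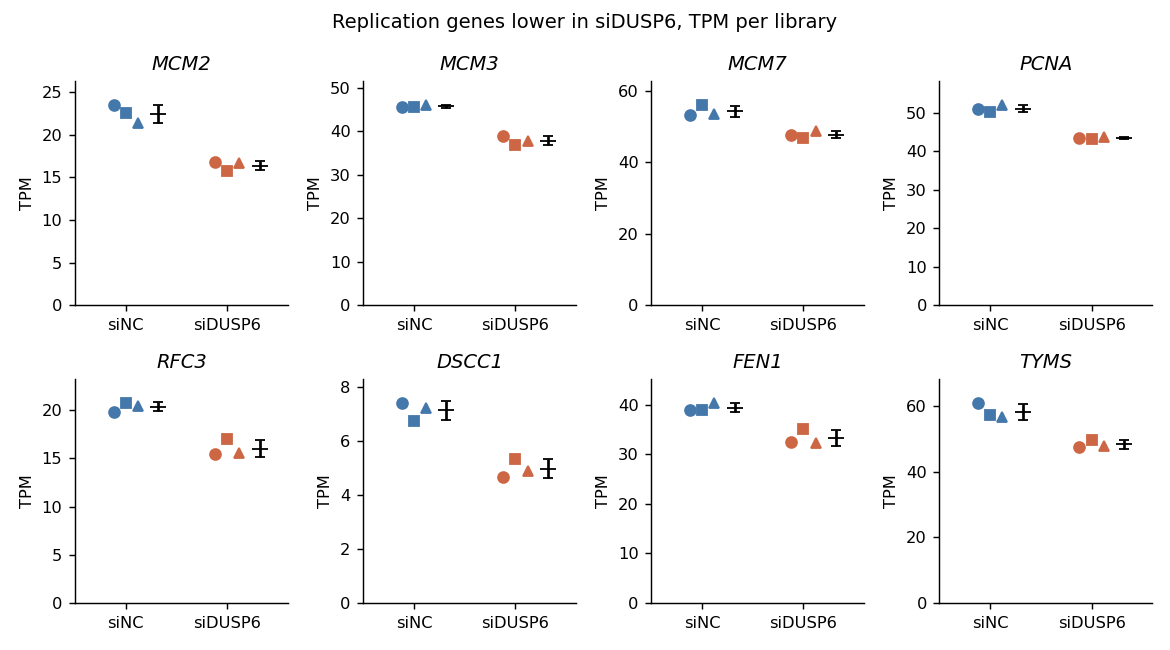
TPM in each library for the 8 replication genes called lower in siDUSP6, with circles, squares and triangles for replicates 1, 2 and 3 and the mean ± SD (n = 3) in black beside each group. In each panel the 3 siDUSP6 points lie below the 3 siNC points, for example 15.7 to 16.7 against 21.3 to 23.5 TPM for MCM2.

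Of the 4 genes that finish lagging-strand fragments or coat single-stranded DNA, 1 fell, 0 rose and 3 did not pass. Of all tested genes 1.49% were called lower and 2.37% higher. FEN1 (chromosome 11, 61792637 to 61797244, plus strand), which cuts the flaps of Okazaki fragments, measured 38.9, 38.9 and 40.4 TPM in siNC and 32.6, 35.1 and 32.3 TPM in siDUSP6. All siDUSP6 libraries lay below siNC (log2 fold change -0.24, SE 0.045, limma adjusted p = 0.03944). The call was kept in 1 of 6 fits without 1 library and was lost after median-of-ratios scaling and quantile normalization (largest adjusted p 0.1373). LIG1, the ligase that joins the fragments, measured 27.2, 24.7 and 22.4 TPM in siNC and 20.6, 22.3 and 22.9 TPM in siDUSP6, with overlapping groups. RPA2 and RPA3, subunits of the single-strand binding protein, had log2 fold changes of -0.10 and 0.04 (adjusted p = 0.2196 and 0.8709).

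Nucleotide synthesis was represented by 5 genes, of which 1 fell, 0 rose and 4 did not pass. For all tested genes the shares called lower and higher were 1.49% and 2.37%. TYMS (chromosome 18, 657604 to 673578, plus strand), which makes the thymidine nucleotide from its uracil form, measured 61.1, 57.3 and 56.6 TPM in siNC and 47.4, 49.8 and 47.7 TPM in siDUSP6. The groups did not overlap (58.3 ± 2.4 and 48.3 ± 1.31 TPM), and TYMS fell by 0.27 on the log2 scale (limma adjusted p = 0.02195). The TYMS call was lost in each of 6 fits without 1 library, with a largest adjusted p of 0.1014. TK1, the thymidine salvage kinase, measured 35.2, 31.3 and 35.8 TPM in siNC and 27.6, 28.1 and 29.1 TPM in siDUSP6. RRM2, the S-phase subunit of ribonucleotide reductase, measured 50.1, 51.6 and 53.6 TPM in siNC and 46.1, 45.8 and 46.0 TPM in siDUSP6. Both lay just outside the threshold (limma adjusted p = 0.06881 and 0.05867), with every siDUSP6 library below siNC. The partner subunit RRM1 measured 49.4 ± 2.13 and 47.7 ± 0.973 TPM (log2 fold change -0.05, adjusted p = 0.5835). DUT, which removes dUTP, spread widely within siDUSP6, at 47.0, 40.3 and 55.3 TPM, around its siNC values of 49.5, 49.8 and 46.5 TPM.

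None of the 8 polymerase and primase genes passed limma's test. At an unadjusted p under 0.05, 5 of them were lower and 0 higher, against 11.2% and 8.03% of all tested genes. POLD2, an accessory subunit of polymerase delta, had the smallest p and the highest level, at 43.9, 43.7 and 38.0 TPM in siNC and 37.8, 33.6 and 32.9 TPM in siDUSP6 (log2 fold change -0.26, limma adjusted p = 0.1271). POLE2, a subunit of polymerase epsilon, had the largest change at -0.39, but its siNC libraries ran from 5.41 to 8.45 TPM and overlapped siDUSP6 at 3.98 to 5.45 TPM. POLD1, POLE, POLA1 and PRIM1, which hold the active sites of polymerases delta, epsilon and alpha and of primase, had log2 fold changes of -0.29, -0.28, -0.23 and -0.21. POLA2 and PRIM2, the partners of POLA1 and PRIM1, had values of 0.0029 and -0.02, with overlapping groups. PRIM1 measured 18.8, 17.9 and 18.1 TPM in siNC and 17.8, 14.2 and 14.99 TPM in siDUSP6, where replicate 1 lay just below the lowest siNC library.

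Origin licensing genes had no call by limma among 5. At an unadjusted p under 0.05, 3 were lower and 0 higher, against 11.2% and 8.03% of all tested genes. CDC6, a loader of the MCM ring, had the smallest p, at 16.1, 17.6 and 15.2 TPM in siNC and 13.1, 14.3 and 13.3 TPM in siDUSP6 (log2 fold change -0.25, limma adjusted p = 0.1122). CDT1, its partner in loading, had the largest change, at 4.87, 5.03 and 5.40 TPM in siNC and 3.70, 4.27 and 3.94 TPM in siDUSP6 (log2 fold change -0.30, adjusted p = 0.1255). ORC6, the most abundant of the 5, overlapped between groups, at 31.3 ± 1.23 and 28.3 ± 2.56 TPM. ORC1 and GMNN, the CDT1 inhibitor geminin, had log2 fold changes of -0.17 and -0.16, with all siDUSP6 libraries below siNC.

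The G1/S regulators also had no call by limma, but in all 4 the siDUSP6 libraries lay below siNC and the unadjusted p was under 0.05. Among all tested genes 14.9% lay below siNC in this way and 11.2% were lower at that p. In a separate list of 27 tested G1/S genes outside the 49 the shares were 33.3% and 25.9%. CCNE1, cyclin E1, the activator of the kinase CDK2, measured 10.7, 10.7 and 10.03 TPM in siNC and 8.09, 8.92 and 7.88 TPM in siDUSP6 (log2 fold change -0.30, limma adjusted p = 0.06818). CCNE2, cyclin E2, was the most abundant of the 4, at 20.5 ± 0.807 and 17.3 ± 1.86 TPM (adjusted p = 0.1772). The transcription factor E2F1 measured 8.51, 9.25 and 8.28 TPM in siNC and 7.35, 7.18 and 7.67 TPM in siDUSP6 (log2 fold change -0.20, adjusted p = 0.1728). E2F2 was the least abundant of the 49, at 1.71, 1.44 and 1.5 TPM in siNC and 1.02, 0.88 and 1.09 TPM in siDUSP6. Its mean changed by -35.7%, which the log2(TPM + 1) scale understates (log2 fold change -0.35, SE 0.132, adjusted p = 0.2128).

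The 4 genes of chromatin copying and checkpoint control gave 0 calls by limma. At an unadjusted p under 0.05, 2 were lower and 0 higher, against 11.2% and 8.03% of all tested genes. DNMT1, the maintenance DNA methyltransferase, measured 63.0, 61.5 and 59.0 TPM in siNC and 54.3, 53.0 and 56.3 TPM in siDUSP6 (log2 fold change -0.16, limma adjusted p = 0.07982). UHRF1, which guides DNMT1 to newly copied DNA, measured 12.1 ± 0.627 and 10.6 ± 0.232 TPM (adjusted p = 0.1659). In both all siDUSP6 libraries lay below siNC, while CLSPN, a mediator of the replication checkpoint, and CHAF1A, a subunit of the histone chaperone CAF-1, overlapped between the groups.

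Calls were counted by level. Of the 21 genes with a mean of 20 TPM or more 5 were called lower, of the 25 between 5 and 20 TPM 3, and of the 3 below 5 TPM 0. Among all tested genes the shares called lower at these levels were 3.15%, 0.669% and 0.16%. The median SE of the log2 fold change was 0.045, 0.0798 and 0.11 in these bins of the 49, and their median log2 fold changes were -0.16, -0.21 and -0.30. The lowest bin holds only E2F2, GINS2 and CDT1.

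**Figure D5:**
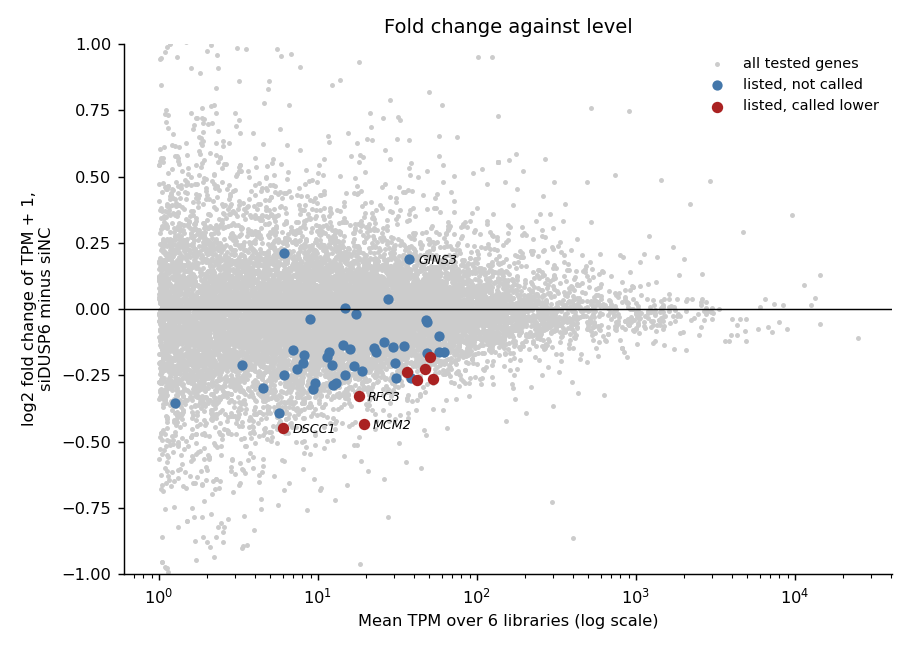
Log2 fold change of TPM + 1, siDUSP6 minus siNC, against mean TPM over 6 libraries on a log axis, for all tested genes (grey), listed genes not called (blue) and the 8 called lower (red), with 4 genes named. The vertical axis ends at 1 in both directions and leaves out 150 genes; the blue and red points lie mostly below 0, with DSCC1 and MCM2 lowest among the red and GINS3 above.

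Other genes of the pathway gave few calls. For the counts below, 11.2% of all tested genes were lower and 8.03% higher at an unadjusted p under 0.05. Of 29 further replication genes limma called 0, with 11 lower and 1 higher at an unadjusted p under 0.05 and a median log2 fold change of -0.11. The smallest p values were those of DNA2, a nuclease and helicase (6.05 and 4.69 TPM, limma adjusted p = 0.0635), and CHTF8, the third special subunit of the DSCC1 loader (55.4 and 50.1 TPM, adjusted p = 0.07046). Of 26 genes of chromatin assembly, checkpoint and repair limma also called 0, with 10 lower and 1 higher at an unadjusted p under 0.05 and a median of -0.12. The smallest p values there were those of USP1, which removes ubiquitin from PCNA (29 and 25.1 TPM, adjusted p = 0.06074), and DTL, which targets CDT1 for degradation (11.9 and 9.51 TPM, adjusted p = 0.06908).

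In 2 lists the only called gene was higher in siDUSP6. Among 24 further nucleotide metabolism genes SAMHD1, which breaks down deoxynucleotides, rose by 0.15 on the log2 scale, with means of 130 and 144 TPM (limma adjusted p = 0.0427), while 0 fell and 8 were lower at an unadjusted p under 0.05. Among 27 tested regulators of the G1/S step CDKN1A, the cyclin-dependent kinase inhibitor p21, rose by 0.13 on the log2 scale, with means of 671 and 732 TPM (limma adjusted p = 0.03944), while 0 fell and 7 were lower at an unadjusted p under 0.05. In both genes all 3 siDUSP6 libraries lay above siNC. Over all tested genes 2.37% were called higher and 1.49% lower, and 11.2% were lower at an unadjusted p under 0.05. Each of these calls was lost in all 6 fits without 1 library, with largest adjusted p values of 0.1559 for SAMHD1 and 0.1951 for CDKN1A among the alternatives.

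Mitosis genes act after replication. Of 30 listed 2 fell (6.67%), 0 rose and 28 did not pass, against 1.49% of all tested genes called lower. In 18 (60.0%) all siDUSP6 libraries lay below siNC, against 63.3% of the 49 and 14.9% of all tested genes. The median log2 fold change was -0.19. The 2 were CDC20, which switches on the anaphase-promoting complex, at 188 and 153 TPM (log2 fold change -0.30, limma adjusted p = 0.001567), and CDK1, the mitotic kinase, at 74.1 and 64.4 TPM (adjusted p = 0.03572). The CDC20 call was kept in all 16 alternatives, and that of CDK1 was lost in all 6 fits without 1 library. The summed TPM of the 30 was 867 to 882 in siNC and 755 to 771 in siDUSP6. A difference between these genes and the 49 was not tested.

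Some of the 49 share exon sequence with neighbours in GENCODE 29, and the sources used here do not say whether the authors counted by strand. Among called genes the longest overlaps with expressed neighbours were 719 bases of TYMS with ENOSF1, 224 bases of MCM7 with AP4M1 and 166 bases of FEN1 with TMEM258, all on the opposite strand. FEN1 also shares 49 bases with FADS2 on its own strand, and MCM2 45 bases with TPRA1 on the opposite strand. None of these 5 neighbours passed limma's test (adjusted p = 0.4553, 0.9487, 0.5898, 0.9593 and 0.09884 in the order named), with log2 fold changes of -0.11, 0.02, 0.04, 0.02 and 0.31. Rows named as pseudogenes of PCNA, RFC3, RFC5, FEN1, TYMS, RRM2, DUT, ORC1, POLD2, RPA2 and RPA3 had means of 0.418 TPM or less, and how shared reads were divided is not given in the sources used here. The 49 genes lie on 19 chromosomes, with at most 6 on 1 of them, chromosome 19.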

How the data were processed

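Per the labels' protocols, 6 libraries were made from total RNA with an Illumina stranded mRNA kit. Gene-level TPM values from all of them stand in a single table the authors deposited. GRCh38, fastp, HISAT2 and StringTie appear, without versions, in the submitters' processing notes. Which annotation was used and what computed the TPM is not given in the sources used here. After 21 rows without gene ID or values were left out, 63241 remained. Groups came from the sample titles.

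Log2(TPM + 1) values of genes with a mean of 1 TPM or more were fitted by group, with a variance trend, in limma 3.58.1 under R 4.3.3. Benjamini-Hochberg adjustment covered all 14602 tested genes, with calls at 0.05, two-sided. An exact permutation test of 3 against 3 libraries cannot give a p under 0.1. Fold changes on this scale understate the change of low genes.

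The members and lists were chosen with earlier results of these data known. All 49 may be named. Called members have values per library; in each role group the uncalled member with the smallest p and the most abundant were also named, and from related lists the called genes, or the 2 with the smallest p. POLE2 and others named beyond this were chosen after their values were seen. Coordinates came from GENCODE 29, promoters from RefSeq (GRCh38.p14), searched with Python 3.11.15. The 16 alternatives were other pseudocounts, filters, scalings and variance settings, a replicate block, and each library left out.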

Additional observations from a re-analysis of the deposited data

How the results depend on the processing

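The number of the 49 genes called lower was 8, and 1 to 4 when 1 library was left out, 4 with no filter on level, 1 without the variance trend, and 6 to 10 under the other alternatives except the block. Genes called in all were 564, and 222 to 266 with 1 library left out (165 to 192 higher and 57 to 79 lower). They were 360 with no filter (114 lower) and 124 without the trend (106 higher and 18 lower). The median log2 fold change of the 49 (-0.20) was -0.15 with a pseudocount of 5, -0.18 when a mean of 5 TPM or more was required, -0.18 after median-of-ratios scaling, -0.18 after quantile normalization and -0.20 to -0.18 with 1 library left out. That of all tested genes was -0.0178, -0.00303 and -0.00965 with the pseudocount of 5, median-of-ratios scaling and quantile normalization, -0.0116 with no filter, and -0.0284 to -0.0192 with 1 library left out. DUSP6 stayed called, at -0.74 to -0.71 with 1 library left out. No gene of the 49 was called higher in any of the 16 alternatives, and 43 to 46 of them had a log2 fold change below 0 (42 of the 46 left by the filter at 5 TPM). Replicate numbers in the labels mark no stated pairing, and deviations of same-numbered libraries correlated at 0.0252, -0.0365 and 0.048. With the replicate block 121 genes were called (101 higher and 20 lower), with 0 of the 49 called by limma (MCM2 adjusted p = 0.06547). TPM hold no depth, so counting error could not be estimated.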

Other observations

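Among the repair genes listed beside replication, BARD1, the partner of BRCA1, varied most between libraries of a group. It measured 8.07, 23.4 and 8.04 TPM in siNC and 21.2, 26.2 and 21.9 TPM in siDUSP6, and was chosen after its values were seen. siNC replicate 2 lay within the siDUSP6 range and replicates 1 and 3 far below it (log2 fold change 0.93, limma adjusted p = 0.2436). The ratio of RRM2 to RRM1 TPM was 0.971 to 1.09 in siNC and 0.946 to 0.982 in siDUSP6, with overlapping groups. The ratio of CDT1 to GMNN was 0.361 to 0.445 and 0.328 to 0.406, also overlapping.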
